A study of Rattus norvegicus with 8 samples.

Results

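miR-210, a microRNA (miRNA) induced by low oxygen, was followed in heart muscle cells of newborn and 10-day-old rats. It is the array entry named rno-miR-210, 1 of 677 rat miRNAs and 2 of 1644 probes on the Agilent rat miRNA array. Total RNA of cardiomyocytes isolated at postnatal day 10 (P10) and at postnatal day 0 (P0) was labelled with the dye Cy3 and hybridised to 8 one-colour arrays, 4 per age. Rats of either sex were used at both ages, and neither a strain nor a treatment is given. The sample labels give the younger age as P0 while the series title and design give day 1, and P0 is used here. Per the labels, P10 cells proliferated less than P0 cells. Whether the 4 arrays of an age are separate animals or cultures is not labelled. The p-values below therefore reflect the spread of these samples alone, part of which may be technical.

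miRNAs are short RNAs that guide repression of messenger RNAs that pair with their seed, bases 2 to 8. In low oxygen the transcription factor HIF-1alpha is stabilised and switches on the gene of miR-210, which is the most widely shared miRNA response to hypoxia across cell types. Known targets of miR-210 include Iscu, an iron-sulfur cluster scaffold of mitochondrial respiration, the ephrin ligand Efna3 and the glycerol phosphate gene Gpd1l. The fetus lives at low arterial oxygen. Arterial oxygen rises at birth, and cardiomyocytes then turn from glycolysis to oxidative metabolism and leave the cell cycle over the first days of life. Both ages compared here are postnatal, no fetal sample is included, and oxygen was not measured in these samples.

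The sequences at the locus are shown because 3 mature miRNAs with probes on the array come from the same short stretch of chromosome 1. In GRCr8 the Mir210 hairpin of 110 bases lies at chr1:205755923-205756032 on the minus strand, within the span of the long non-coding RNA gene LOC102553043 and between Rassf7 (2573 bp away) and Phrf1 (7232 bp away). The sequences are RefSeq's on GRCr8, written 5′ to 3′, with the seed of each mature miRNA in capitals and, in the hairpin, miR-210-3p in capitals.
miR-210-3p: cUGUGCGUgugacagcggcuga
miR-210-5p: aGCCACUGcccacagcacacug
miR-3574: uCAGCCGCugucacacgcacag
Mir210 hairpin: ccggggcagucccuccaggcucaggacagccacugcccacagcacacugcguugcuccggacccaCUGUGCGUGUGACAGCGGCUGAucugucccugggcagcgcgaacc

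The array's rno-miR-210 is miR-210-3p, at chr1:205755946-205755967. Its seed was carried by 1 of 724 mature rat miRNAs in the RefSeq table, miR-210-3p itself. Its GC content was 63.6%, against a median of 47.6% over those 724. miR-3574 is annotated on the plus strand at the same positions and is complementary to miR-210-3p over all 22 bases. miR-210-5p, the passenger strand of the hairpin, is called miR-210* on the array.

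The probes that read miR-210 differ by a single base at their 3′ end, shown as a capital. Both capture sequences are from the deposited scanner files.
Brighter probe: tcagccgctgtcacaC
Dimmer probe: tcagccgctgtcaca

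The brighter probe has 16 bases and pairs with bases 7 to 22 of miR-210-3p, counted from the 5′ end. The dimmer one has 15 bases and pairs with bases 8 to 22. On the array's build, rn4, the files place them on chromosome 1 at 201415728 to 201415742 and at 201415729 to 201415742. Both thus read the 3′ part of the miRNA and leave out most of the seed. They read the same RNA on the same array, so the dimmer probe is a second measurement and not a second sample.

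Several arrays stood apart. P0 replicate 1 was dim: its scaling signal was 116 intensity units, against 580 to 1326 on the other 7, and it detected 73 miRNAs, against 157 to 187. P10 replicates 1 and 2 were near-identical (r = 0.998 over the 158 tested miRNAs), as were P10 replicates 3 and 4 (r = 0.997). Between those pairs r was 0.890 to 0.898. P10 replicates 3 and 4 lay closer to P0 replicates 2 to 4 (r = 0.929 to 0.958) than to the other P10 pair. P0 replicates 2 to 4 were also alike (r = 0.979 to 0.994). All arrays shared 1 slide and 1 scan, with P10 on its second row and P0 on its first, so age and row cannot be told apart.

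Of the 3 products of the locus, miR-210-3p alone was detected. Its spots, 10 per probe, were well above background in 61 of 80 cases at P10 and in 72 of 80 at P0. For miR-210-5p this held for 1 of 80 spots at P10 and 0 of 80 at P0. For miR-3574 it held for 0 of 80 at either age, and all mean signals of both were below 0 after background subtraction (from -7.76 to -3.27 units at P10 and from -7.27 to -4.15 at P0). The probes of the opposite strand and of the passenger strand thus were not well above background at either age, apart from that 1 spot.

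Before any scaling, the brighter miR-210 probe had 23.1, 22.6, 106 and 113 intensity units on P10 replicates 1 to 4. It had 25.1, 328, 200 and 293 units on P0 replicates 1 to 4. Unscaled, P10 and P0 overlapped through the dim P0 replicate 1, which lay beside P10 replicates 1 and 2. Spots of the brighter probe varied by 5.60% to 18.2% (coefficient of variation) within P10 arrays and by 4.46% to 9.48% within P0 arrays. The dimmer probe had 10.8, 8.48, 52.6 and 55.8 units at P10 and 9.53, 166, 101 and 148 units at P0. It was not well above background on P10 replicates 1 and 2 and on P0 replicate 1, which are the same 3 arrays on which the brighter probe was lowest.

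For comparison between arrays, signals were expressed relative to a 75th percentile, taken on each array from 111 probes with signal throughout, then floored and put on the log2 scale. Scaled, the brighter probe stood at log2 -4.82, -4.68, -3.59 and -3.49 on P10 replicates 1 to 4 and at -2.20, -2.01, -2.01 and -1.98 on P0 replicates 1 to 4. The ages did not overlap, and the lowest P0 array lay 1.29 above the highest P10 array. This separation was not particular to miR-210, as 20 of 158 tested miRNAs (12.7%) lay below P0 on every P10 array. The 4 P0 levels spanned only 0.22, with the dim P0 replicate 1 the lowest, whereas the P10 levels fell into the same pairs as the arrays.

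**Figure D1:**
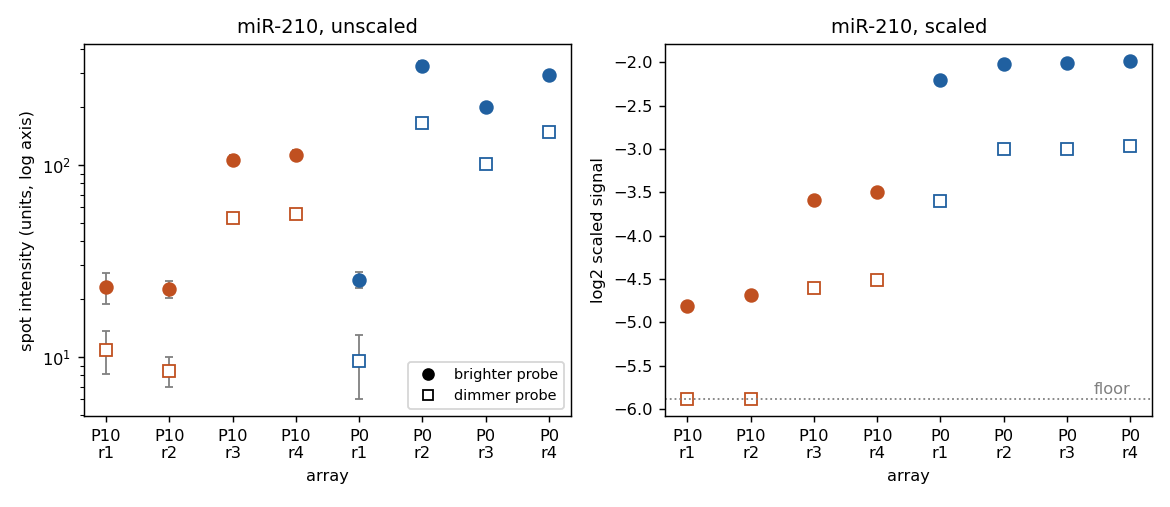
miR-210 on each array (x axis, r1 to r4 are the replicates), as unscaled spot intensity on a log axis (left, bars are the SD over spots) and as log2 scaled signal (right); filled circles are the brighter probe, open squares the dimmer probe, orange P10 and blue P0. Unscaled, P0 replicate 1 lies at 25.1 units beside P10 replicates 1 and 2, while after scaling the P0 values of the brighter probe lie between -2.20 and -1.98 and the P10 values between -4.82 and -3.49.

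miR-210 was lower on the P10 arrays than on the P0 arrays. It averaged log2 -4.14 ± 0.70 at P10 and -2.05 ± 0.10 at P0 (SD, n = 4 each), a difference of -2.09 ± 0.34 (SE), which puts the P10 level at 23.5% of the P0 level. In the limma fit across all miRNAs the adjusted p was 0.00797 (Benjamini-Hochberg over 158). That fit called 14 miRNAs (8.86%), of which 7 (4.43%) were lower and 7 (4.43%) higher at P10. The exact two-sided permutation test on miR-210 alone gave p = 0.0286, the smallest that 70 arrangements allow. Both tests count the near-identical P10 arrays as separate samples. With each P10 pair averaged the adjusted p was 0.0616 in limma, short of the threshold. miR-210 had the most negative difference of the 158, ahead of miR-130b (-1.44 ± 0.41, SE), and had rank 4 by p-value. In bulk RNA of a cell preparation, less miR-210 per cell and fewer of the cells that hold it cannot be told apart.

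The dimmer probe had the same sign, and its size depends on the floor. Scaled and floored, it stood at the floor of -5.89 on P10 replicates 1 and 2 and at -4.60 and -4.51 on replicates 3 and 4. On P0 it stood at -3.60, -3.0, -3.0 and -2.97. Its difference was -2.08 with no overlap between the ages, -1.58 with the floor doubled, and -1.41 without P10 replicates 1 and 2. It was not detected on all 4 arrays of either age and so was not among the 273 probes tested. Of those, 10 (3.66%) were called, 4 of them lower (1.47%), with the brighter miR-210 probe among these 4 (adjusted p = 0.0113 by limma). The dimmer probe entered the test under wider filters, with an adjusted p in limma of 0.0269 where detection on at least 1 array was asked for and 0.197 with no filter. It also entered it when arrays were left out, with 0.0250 without P10 replicates 1 and 2, 0.0138 without P0 replicate 1, and 0.0545 when P10 pairs were averaged as well as P0 replicate 1 left out.

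The P10 level rested on which pair of arrays was read. Replicates 1 and 2 averaged log2 -4.75 and replicates 3 and 4 -3.54, a gap of 1.21, or 2.31 times the level on replicates 3 and 4. Within a pair the arrays differed by 0.14 and 0.09. Without both P10 replicates 3 and 4 the age difference was -2.71 ± 0.10 (SE), and without both P10 replicates 1 and 2 it was -1.49 ± 0.13, with adjusted p of 1.85e-05 and 0.00298 in those limma fits. Each of these fits leaves a single near-identical pair at P10. They called 45.5% and 8.24% of all miRNAs tested, with miR-210 at rank 11 and 3 by p-value. With each P10 pair averaged to 1 sample the difference of -2.09 ± 0.40 had an adjusted p of 0.0616 in limma, so the call was lost. The 4 P0 arrays stayed separate in that fit, although P0 replicates 2 to 4 were also alike (r = 0.979 to 0.994). In that fit limma called 0 of 158 miRNAs, with 26 at an unadjusted p under 0.05. Without the dim P0 replicate 1 and rescaled, the difference was -2.32 ± 0.52 (adjusted p = 0.0145 by limma). That last fit called 71 of 168 miRNAs (42.3%), with miR-210 at rank 36 by p-value.

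**Figure D2:**
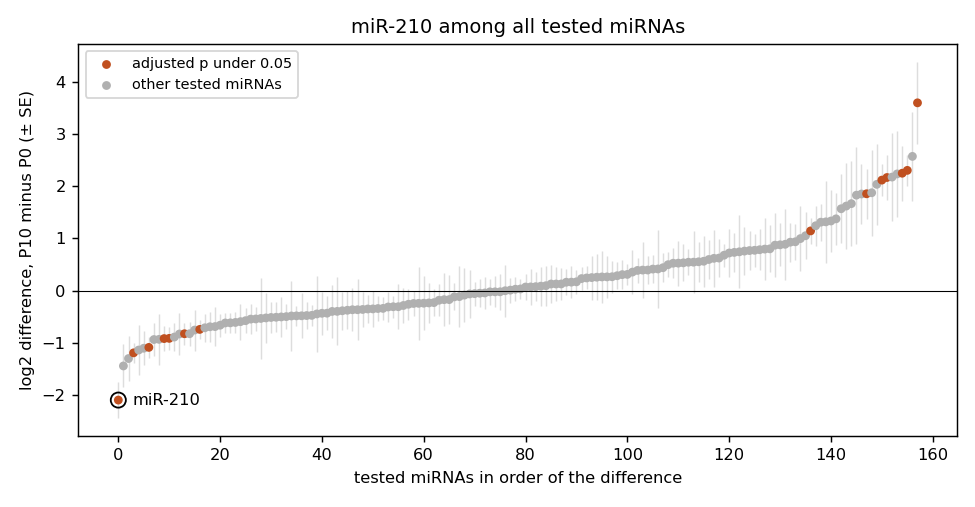
Log2 difference, P10 minus P0, with its SE (y axis) of the 158 tested miRNAs in order of that difference (x axis); orange points passed an adjusted p of 0.05 and grey points did not. miR-210, circled, lies at -2.09, the lowest of the 158, with miR-130b next at -1.44.

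The rank of miR-210 within an array does not depend on the scaling. Among the miRNAs detected on each array, with the brightest as 1, miR-210 had rank 148 of 172, 141 of 170, 81 of 187 and 78 of 169 on P10 replicates 1 to 4. It had rank 53 of 73, 54 of 176, 54 of 157 and 54 of 158 on P0 replicates 1 to 4. The P0 arrays thus placed it within a single position of each other, the dim one included, and every P10 array placed it further down. The mean rank was 112 ± 37.7 at P10 and 53.8 ± 0.50 at P0 (SD, n = 4 each), and the exact permutation test (two-sided) gave p = 0.0286. Without any 1 of the P0 arrays the exact permutation p was 0.0857. Without any 1 of the P10 arrays, its near-identical partner kept, the exact permutation p was 0.0286. Ranks compare probes that bind with unequal strength, so they place miR-210 only against the same probes on other arrays.

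Among the 70 miRNAs detected on all 8 arrays, miR-210 had rank 70, 70, 63 and 62 at P10 and 52, 53, 54 and 54 at P0. It was the dimmest of the 70 on P10 replicates 1 and 2. By mean level, miR-210 had position 105 of 157 at P10, between miR-30e* and miR-28, and position 53 of 71 at P0, between miR-25 and miR-322. These are positions among probe signals and not an order of abundance. As a share of the miRNAs detected on the array, however, the ages overlapped. Of the other detected miRNAs, 14%, 17.2%, 57.0% and 54.2% lay below miR-210 on P10 replicates 1 to 4, against 27.8%, 69.7%, 66.0% and 66.2% on P0 replicates 1 to 4. P0 replicate 1, with its short list of detected miRNAs, lay among the P10 arrays on this measure (exact permutation p = 0.171).

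**Figure D3:**
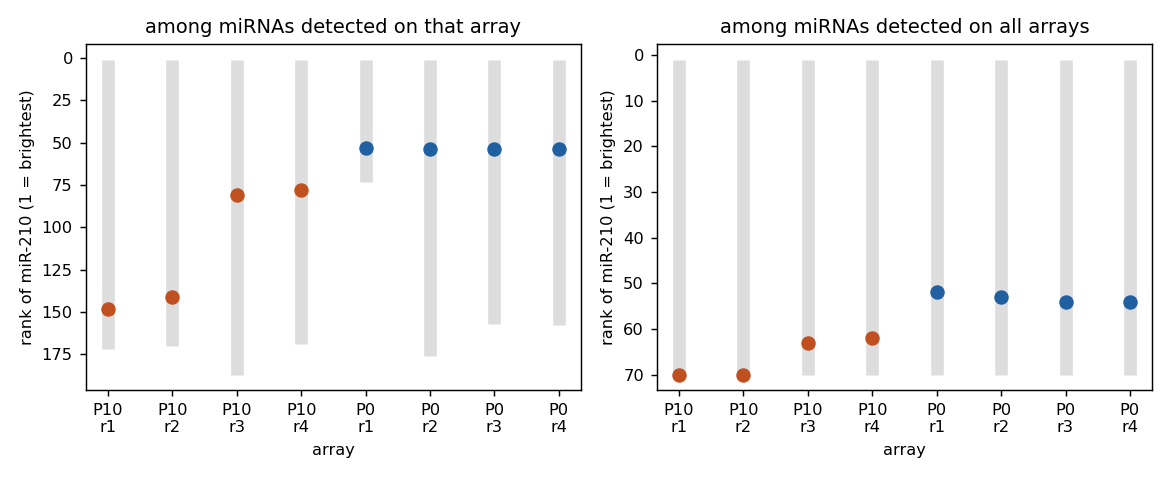
Rank of miR-210 by signal on each array (y axis, 1 is the brightest, drawn at the top), among the miRNAs detected on that array (left) and among the 70 detected on all arrays (right); grey bars span the ranks available, orange is P10 and blue P0. All P0 arrays place miR-210 at 53 or 54 on the left, and P10 replicates 1 and 2 place it last of 70 on the right.

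miR-210 was next set against the muscle miRNAs miR-1, miR-133a and miR-133b, which are abundant in cardiomyocytes and restrain cell division and shape the contractile program. Their mean log2 level was 0.72, 0.60, 1.77 and 1.83 on P10 replicates 1 to 4 and 1.12, 1.64, 1.52 and 1.57 on P0 replicates 1 to 4. They were therefore also low on P10 replicates 1 and 2, by 1.14 against replicates 3 and 4. Relative to that mean, miR-210 stood at -5.53, -5.28, -5.35 and -5.32 at P10 and at -3.32, -3.65, -3.53 and -3.55 at P0. On this scale the P10 pairs lay 0.07 apart and the ages were separated by 1.63 at their closest.

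The difference relative to the muscle miRNAs was -1.86 ± 0.21 (SE; means -5.37 ± 0.11 at P10 and -3.51 ± 0.14 at P0, SD, n = 4 each). The P0 level was 3.62 times the P10 level. With every miRNA scaled this way limma gave miR-210 the lowest p-value of the 158 (adjusted p = 0.00319), and 3 miRNAs passed. This scaling moved the median difference of all tested miRNAs to 0.29, against 0.03 in the main scaling. It also moved other miRNAs apart within P10, where the median tested miRNA was 1.72 higher on replicates 1 and 2 than on 3 and 4. With each pair averaged on this scale the difference of -1.86 ± 0.29 had an adjusted p of 0.114 in limma.

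**Figure D4:**
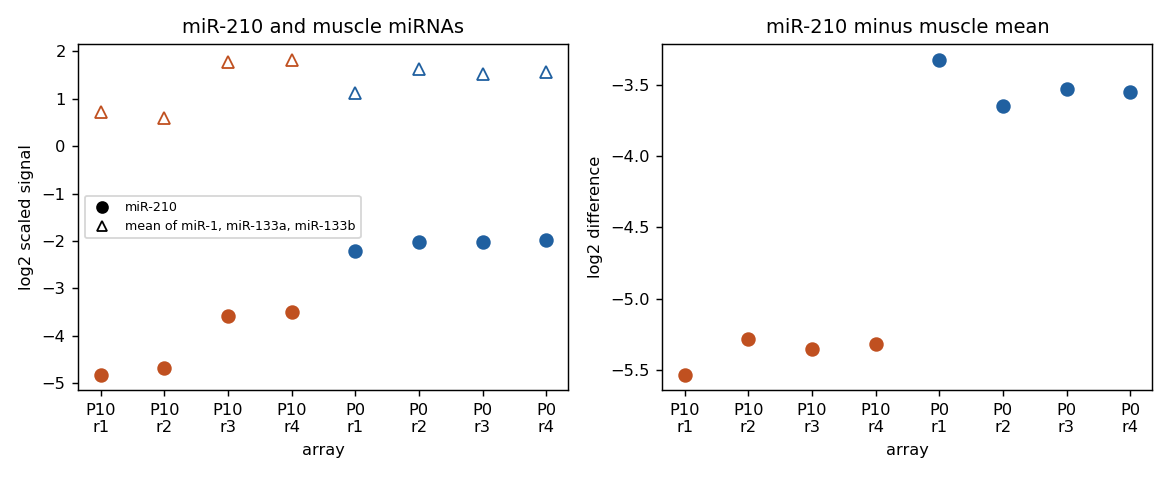
Left, log2 scaled signal of miR-210 (circles) and mean of the muscle miRNAs miR-1, miR-133a and miR-133b (open triangles) on each array; right, miR-210 minus that mean (log2); orange is P10 and blue P0. On the right the 4 P10 arrays lie between -5.53 and -5.28 and the 4 P0 arrays between -3.65 and -3.32.

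Markers of other cells differed between the P10 pairs or between the ages. The summed scaled signal of the 3 fibroblast and stroma miRNAs (miR-199a-3p, miR-199a-5p and miR-214), all detected at both ages, was 2.62 and 2.69 on P10 replicates 1 and 2 and 0.264 and 0.244 on replicates 3 and 4, against 0.116 to 0.180 on P0 arrays. Of the 3, 0 passed the age test (adjusted p = 0.0914 to 0.140 by limma). All 3 had an unadjusted p under 0.05 in limma, as had 44 of all 158 tested miRNAs. The 6 cardiomyocyte miRNAs, all detected at both ages, summed to 10.1 and 9.27 on P10 replicates 1 and 2 and 19.9 and 20.7 on replicates 3 and 4, against 11.7 to 17.1 on P0 arrays, a sum made up mostly of miR-1 and miR-133b. Of the 5 cardiomyocyte miRNAs tested, 1 (20%) was called, against 8.86% of all 158. This was miR-208, which was higher at P10 (1.14 ± 0.25, adjusted p = 0.0285 by limma). It was at the floor on all 4 P0 arrays and entered the test through P10. The arrays with the lowest miR-210 at P10 thus had the highest stromal and the lowest cardiomyocyte signal of that age. The endothelial miR-126 had 0.149 to 0.247 at P10 and 0.0169 to 0.0609 at P0, and was called higher (adjusted p = 0.0216 by limma). It was at the floor on P0 replicate 1 and entered the test through P10. The 2 smooth muscle miRNAs summed to 0.852 to 1.17 at P10 and 1.37 to 2.17 at P0. The 5 leukocyte miRNAs (4 detected at P10, 3 at P0) summed to 0.105 to 0.242 at P10 and 0.0895 to 0.255 at P0, where the ages overlap. Leukocyte members at the floor add 0.0169 each to that sum. Its P0 high of 0.255 is on the dim P0 replicate 1, where miR-223 stood at log2 -2.41. In the smooth muscle and leukocyte lists 2 members each were tested and 1 (50%) was called, against 8.86% of all 158. These were miR-143 lower and miR-146a higher (adjusted p = 0.0434 for both by limma). miR-146a was at the floor on all 4 P0 arrays and entered the test through P10. Of 6 epithelial miRNAs 0 were detected at either age, of 3 liver miRNAs 0 at P10 and 1 at P0, and of 4 neural and 2 erythroid miRNAs 1 each at both ages. Their part in the miR-210 difference was not tested.

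miRNAs whose profile over the 8 arrays lay closest to that of miR-210 were found by the root mean square distance between log2 levels, each centred on its own mean. They were miR-130b (0.36), miR-301a (0.52), miR-652 (0.58), miR-490* (0.59) and miR-378 (0.64), against a median of 1.33 over the other tested miRNAs. miR-130b and miR-301a share a seed family. miR-130b stood at -4.09, -4.02, -2.65 and -2.57 on P10 replicates 1 to 4 and at -2.38, -1.72, -1.78 and -1.69 on P0 replicates 1 to 4. Likeness over all 8 arrays includes the age difference, so the negative differences of all 5 (-1.44 to -0.91) and their split within P10 restate how they were chosen. miR-378, whose hairpin is hosted by a coactivator gene of oxidative metabolism, stood at 0.19 or below on P10 arrays and at 0.67 or above on P0 arrays.

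Centred within each age, which leaves out the age difference, the closest profiles were those of miR-490* (0.10), miR-133a (0.10), miR-133b (0.10), miR-30d (0.12) and miR-301a (0.15), against a median of 0.74. miR-133b, a heart and skeletal muscle miRNA, had a like split within P10 (2.54, 2.39, 3.58 and 3.69 on replicates 1 to 4) but stood at 2.78, 3.27, 3.07 and 3.17 on P0. Its age difference was -0.02 ± 0.34 (SE, adjusted p = 0.966 by limma). The likeness within ages is again what chose it, and the difference between its age difference and that of miR-210 was tested only through the scaling to muscle miRNAs above.

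Other miRNAs known from hypoxia gave differences of both signs. The 13 other members of the early hypoxia signature described in cultured human cancer cells were all tested. Of these, 1 was called lower (miR-103) and 0 higher, a share of 7.69% against 8.86% of all tested miRNAs, with 7 negative and 6 positive differences and a median of -0.05, against 0.03 for all 158. miR-103, of a family that lies within pantothenate kinase genes and can act on Dicer, averaged -1.11 ± 0.11 at P10 and -0.29 ± 0.24 at P0 (SD, n = 4 each), a difference of -0.82 ± 0.21 (adjusted p = 0.0434 by limma). Its near-identical relative miR-107 differed by -0.82 ± 0.23 (adjusted p = 0.0626), and their probes may read both. Next in order were miR-181b (-0.62 ± 0.19), miR-181a (-0.54 ± 0.24), miR-26a (-0.34 ± 0.23), miR-181d (-0.24 ± 0.25) and miR-26b (-0.05 ± 0.27), all short of the threshold.

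On the positive side were miR-23a (1.31 ± 0.35, adjusted p = 0.0550), miR-27a (0.93 ± 0.37), miR-181c (0.62 ± 0.37), miR-24 (0.41 ± 0.26), miR-23b (0.03 ± 0.23) and miR-27b (0.01 ± 0.24; SE, n = 4 per age). miR-23a, miR-27a and miR-24 come from shared clusters, and none of the 6 passed the threshold in limma. Without the dim P0 replicate 1 the signs were 9 negative and 4 positive, with a median of -0.47 against -0.17 for all miRNAs tested, and miR-23b and miR-27b turned negative. In that fit 7 of the 13 passed the threshold (6 lower, 1 higher), as did 42.3% of all tested miRNAs. Without both P10 replicates 3 and 4 the number was 8, against 45.5% of all tested, and it was 0 when any of P10 replicates 1 to 3 or P0 replicates 2 to 4 was left out alone.

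Of 8 miRNAs known to act on HIF-1alpha or on its stability, or to be lost in hypoxia, 7 were on the array and 6 were tested. Of these 6, 0 passed in the limma fit, where 8.86% of all 158 miRNAs were called. An unadjusted p under 0.05 was reached by 1 of the 6 and by 44 of the 158. The median difference of the 6 was 0.31, against 0.03 for all, with 5 positive and 1 negative. Those signs depend on which arrays are read: without the dim P0 replicate 1 the median was -0.09 (-0.17 for all tested), with 2 positive and 4 negative. Without both P10 replicates 1 and 2 it was -0.39 (-0.19 for all), with 1 positive and 5 negative, and without both P10 replicates 3 and 4 it was 0.97 (0.39 for all), with 6 positive. miR-199a-5p, which represses Hif1a and is lost from cardiomyocytes in low oxygen, differed by 2.23 ± 0.81 (adjusted p = 0.119 by limma) and is also a stromal marker that followed the P10 pairs, as given above. miR-18a differed by 0.74 ± 0.70, miR-20b-5p by 0.36 ± 0.42, miR-20a by 0.26 ± 0.41 and miR-17-5p by 0.25 ± 0.42. miR-322, the rodent counterpart of a human miRNA that stabilises HIF-1alpha in endothelial cells, differed by -0.23 ± 0.39. miR-138 was not detected on any array.

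**Figure D5:**
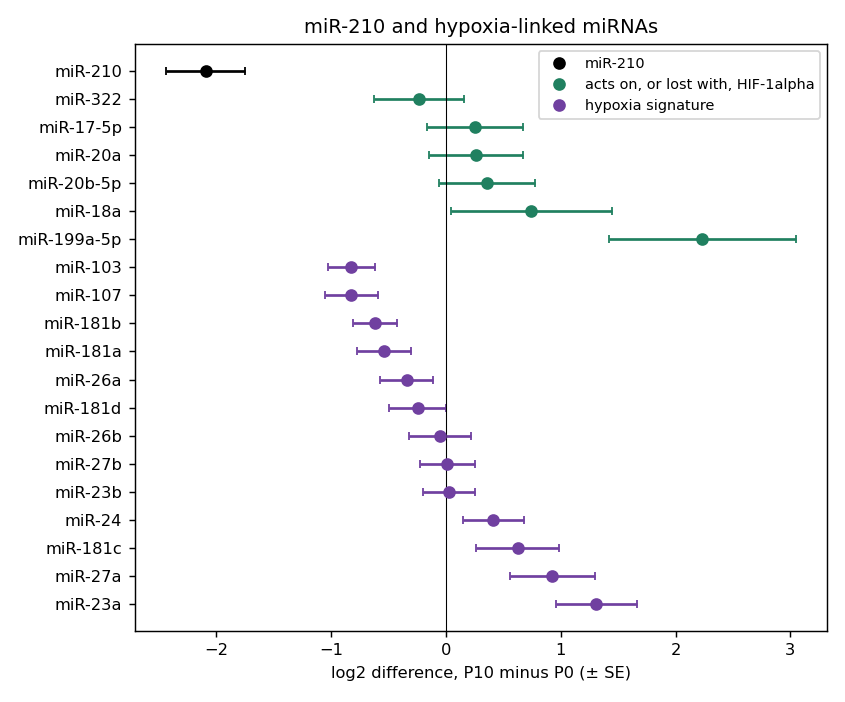
Log2 difference, P10 minus P0, with its SE (x axis) for miR-210 (black, top), for tested miRNAs that act on or are lost with HIF-1alpha (green) and for the other members of the hypoxia signature (purple). miR-210 lies at -2.09, and the other 19 points lie between -0.82 and 2.23, on both sides of 0. Without P0 replicate 1 several of them change sign.

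The authors' deposited log2 matrix, normalized by a method that no source used here gives, held miR-210 at 3.62, 3.64, 6.27 and 6.23 on P10 replicates 1 to 4 and at 6.87, 7.61, 7.47 and 7.47 on P0 replicates 1 to 4. The ages again did not overlap, with a wider split between the P10 pairs. The difference in that matrix was -2.42 ± 0.74 (adjusted p = 0.137 by limma, 174 miRNAs tested), so the call was lost there. It was also lost with no scaling between arrays (-1.57 ± 0.94, adjusted p = 0.574) and after normexp background correction (-1.36 ± 0.26, adjusted p = 0.0907, the lowest p of the 158 in that limma fit).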

How the data were processed

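Arrays were grouped by age from the sample labels. Per the file headers, the deposited scanner files hold intensity values written by Agilent Feature Extraction 10.7.1.1, with a spatially detrended background subtracted and no scaling between arrays. The authors' deposited matrix holds log2 values, normalized by a method not given in the sources used here. Outlier spots were left out and spots averaged per probe. Detection of a probe required 0.5 or more of its spots on that array to be well above background, and a miRNA was detected through any of its probes. Scaled signals were floored at 0.0169 (log2 -5.89), taken as the median of the arrays' lowest detected signals. The brightest probe stood for a miRNA, and tests covered miRNAs detected throughout the 4 arrays of P10, of P0 or of both. No miRNA spot was saturated.

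Tests used limma 3.58.1 in R 4.3.3 (lmFit and eBayes, tested on simulated data), with Benjamini-Hochberg adjustment and a threshold of 0.05, and exact permutation over arrays. Array number limits the precision. miR-210 and the lists were chosen with earlier results of these data known. Named miRNAs are miR-210, its 5 closest profiles on either centring, the hypoxia and HIF-1alpha lists, its neighbours in rank, and muscle miRNAs. Some cell type markers are named as well, among them those that were called (miR-208, miR-126, miR-143 and miR-146a). The hypoxia list was written from memory of the published signature. Alternatives covered scaling, background, floor, filter, probe rule, deposited matrix, replicate block and arrays left out; 2 combining array averaging with another change were added after seeing the data.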

Additional observations from a re-analysis of the deposited data

Results flagged for a closer look

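P0 replicate 1, the dim array, was picked out against the other 3 P0 arrays in 20 of 70 groups of 4 values examined (Dixon's test at 95%). No other array was picked out. The test sets the gap from an extreme value to its neighbour against the range, so a P10 array with a near-identical partner could hardly be picked out. For P10 it thus says nothing about outlying arrays. Chance alone picks out about 1 in 20 groups of independent values, and these values share the same array and are not independent. For miR-210, P0 replicate 1 stood at log2 -2.20, against -2.01 to -1.98 on the other P0 arrays. On the dimmer probe it stood at -3.60 (others -3.0 to -2.97). Its rank of 53 lay next to the 54 of the other 3, and was flagged because those 3 were tied. The array's lowest detected signal lay at log2 -2.84, so the miR-210 level there was 0.64 above that limit. All 4 P10 levels of miR-210 lie under that limit. Among hypoxia signature members it stood at 0.28 for miR-24, -2.84 for miR-26b, -0.64 for miR-103, -0.72 for miR-107, -3.86 for miR-181b, -5.89 for miR-181c and -4.38 for miR-181d. For miRNAs linked to HIF-1alpha it stood at -3.64 for miR-17-5p, -5.33 for miR-18a, -1.49 for miR-20a, -3.59 for miR-20b-5p and -2.68 for miR-322. Among close profiles and rank neighbours it stood at -2.38 for miR-130b, -0.92 for miR-301a, -4.80 for miR-30e*, -5.34 for miR-28 and -2.60 for miR-25. Levels of P0 replicate 1 given here under log2 -2.84 come from probes not detected on that array, and -5.89 is the floor.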

How the results depend on the processing

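The miR-210 difference was negative in all 26 alternatives (-2.71 to -1.36) and past the threshold in 19. It missed it with no scaling (-1.57), normexp (-1.36), no filter on detection (-2.09, adjusted p = 0.0744), the files' total signal (-2.23, adjusted p = 0.0703), P10 pairs averaged (-2.09), those averages scaled to muscle miRNAs (-1.86) and the authors' deposited matrix (-2.42), all by limma. Leaving out 1 array gave -2.32 to -1.87, past the threshold each time. Where a P10 array was left out its near-identical partner stayed, so these fits cannot show how far the call rests on the pairs. The dimmer probe moved with no scaling (-1.47), normexp (-1.15) and without P10 replicates 1 and 2 (-1.41). The count of miRNAs past the threshold, 14, became 3 scaled to muscle miRNAs, 5 with no floor, 4 with no filter, 8 with probes averaged, 76 without P10 replicates 3 and 4, 30 with pairs averaged and without P0 replicate 1, 1 in the deposited matrix and 0 under normexp, total signal, and averaged pairs on either scaling. In those 4 limma fits 22, 35, 26 and 12 miRNAs had an unadjusted p under 0.05. Leaving out 1 array gave 4 (without P10 replicate 1 or P0 replicate 3) to 71 (without P0 replicate 1). Hypoxia members past the threshold, 1 of 13 (7.69%, against 8.86% of all tested miRNAs), became 2 with median scaling (15.4% against 9.49%). They numbered 4 with a doubled floor (30.8% against 12.7%) and 3 with detection on at least 1 array (23.1% against 9.76%). Without P10 replicates 3 and 4 they numbered 8 (61.5% against 45.5%). With averaged pairs and without P0 replicate 1 they numbered 2 (15.4% against 17.9%). The count was 0 under the remaining settings that moved it. On leaving out 1 array it was 0 to 7, with 7 without P0 replicate 1 (53.8% against 42.3%). With quantile normalization and without P10 replicate 4 the hypoxia count stayed at 1, but with 1 higher and 0 lower, so miR-103 was not called lower. HIF-linked members past the threshold numbered 2 of 6 without P10 replicates 3 and 4 (33.3%, against 45.5% of all tested). The rank difference of 58.3 had an exact permutation p of 0.0667 with pairs averaged, the smallest 15 arrangements allow. As a percentile it was 21.9 (exact permutation p = 0.171), and leaving out 1 array gave 46.3 to 69.6, with an exact permutation p of 0.0857 without any 1 P0 array.

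Same-numbered arrays shared only a number: the correlation of their deviations was 0.163, -0.154, 0.03 and 0.136. With a replicate block the miR-210 difference was -2.09 (adjusted p = 0.0249 by limma), with 4 miRNAs and 0 hypoxia members past the threshold. Scaling to the percentile over all probes was not run, because it was not above 0 on every array. Dim signal limits P0 replicate 1, and the dimmer probe at P10.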
